A study of Mus musculus with 93 samples.

Results

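The genes described here encode the subunits of the mitochondrial respiratory chain and of ATP synthase that are carried in the nuclear genome, together with their tissue isoforms. They were taken by symbol from a table of 53465 genes. Of 107 matching genes, 13 annotated as pseudogenes or noncoding copies and 8 assembly factors of the Ndufaf series were set aside, and Cox7b2 and Cox8c did not reach 10 reads in at least 5 mice. The remaining 84 genes comprised 36 for complex I, 4 for complex II, 9 for complex III, 18 for complex IV, and 17 for complex V, and all 84 passed the filter on low counts. Ndufa4 and Ndufa4l2, named after complex I, were placed with complex IV.

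Bulk liver RNA was sequenced from 93 male mice of 7 inbred strains. All mice were housed at 30°C, thermoneutral for mice, from 6 wk of age and ate a control diet (CD, 10% of energy from fat) or a Western diet (WD, 40%) from 7 wk for 17 wk, until 24 wk of age. PWK/PhJ and DBA/2J had 6 mice on CD and 7 on WD, C57BL/6J had 8 on each diet and WSB/EiJ 6 on each, CAST/EiJ had 7 on CD and 8 on WD, A/J had 5 and 6, and 129S1/SvImJ had 7 and 6. The labels name no engineered allele, and warm housing was shared by all groups, so no comparison bears on temperature.

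Electrons from NADH enter the chain at complex I (NADH dehydrogenase) and those from succinate at complex II (succinate dehydrogenase). They pass through complex III and cytochrome c to complex IV (cytochrome c oxidase), and the proton gradient built by complexes I, III, and IV drives complex V (ATP synthase). The liver oxidizes fatty acids through this chain, and several complex IV subunits exist as a widely expressed isoform and as one known from muscle, testis, or lung.

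Between 40020424 and 49894856 reads lay on genes per mouse, and the subunit genes took 0.805 to 1.13% of them. Summed markers of hepatocytes were high in every group (77391 to 224938 counts scaled to library size, CPM, over all mice). RNA integrity numbers lay between 7 and 9.7. Every strain was mapped to the C57BL/6J genome. The share of unmapped reads differed between groups, from a mean of 2.11% in A/J on WD to 13.3% in CAST/EiJ on WD, and its part in the strain levels was not tested. Of the PWK/PhJ mice on CD, replicate 5 stood apart, with 61.8 CPM of Kupffer cell markers against 235 to 403 in the other 5. Of the C57BL/6J mice on WD, replicate 3 had the lowest summed subunit level of all mice on the TMM scale described below. Its TMM factor was also the highest (1.27). As a share of gene reads its subunit genes took 0.872%, above the lowest mouse. Results that turn on either mouse are given without it.

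Levels between genes were compared per length, as CPM per kilobase of the principal transcript (RPKM), averaged over the 7 strain means on CD. The catalytic beta and alpha subunits of ATP synthase led, with Atp5b at 568 RPKM and Atp5a1 at 376 RPKM. The complex IV subunits Cox8a (323 RPKM) and Cox6a1 (317 RPKM) and the subunit c gene Atp5g3 (322 RPKM) followed. These rank positions follow values, not the rule by which other genes were named. Median levels were 57.5 RPKM in complex I, 137 in complex II, 135 in complex III, 134 in complex IV, and 138 in complex V. Complex III was the most even, with a 2.14-fold span between its highest and lowest gene, against 3.97-fold in complex II. The lowest levels belonged to tissue isoforms, with Cox4i2 at 0.211 RPKM, Cox8b at 0.307, Cox6a2 at 0.473, Ndufa4l2 at 1.13, Cox7a1 at 2.03, and Cox6b2 at 2.56. The Cox6b2 value was carried by 129S1/SvImJ (15.2 RPKM), since the other 6 strains lay at 0.0935 to 0.785 RPKM. Ndufb2, a complex I subunit, was the exception at 1.07 RPKM. This value depends on its principal transcript of 4371 bases, and its strain means were 4.05 to 5.68 CPM. Its exons also overlap other annotated genes. How reads in such overlaps were counted is not given in the sources used here.

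The widely expressed partner dominated the pairs that held one of these low-level isoforms. On the RPKM scale, Cox4i1 stood at 212, Cox6b1 at 246, Cox7a2 at 132, and Ndufa4 at 272. Cox7a2l, also paired with Cox7a2, was not low, with strain means of 16.2 RPKM in CAST/EiJ to 68.2 RPKM in C57BL/6J. The Atp5g1, Atp5g2, and Atp5g3 genes encode the same mature subunit c, the membrane rotor of ATP synthase, behind different import sequences. Of their summed RPKM on CD, Atp5g3 took 74.7 to 82.3% by strain. Atp5g2 took 10.8% ± 0.81 (SD, n = 7) in CAST/EiJ and 16.2 to 18.1% in the other 6 strains, and Atp5g1 took 6.20 to 7.25%. These shares depend on the principal transcript used, of 4715 bases for Atp5g1 against 731 for Atp5g2 and 723 for Atp5g3. Without scaling by length, Atp5g1 lay above Atp5g2, with strain means of 110 to 159 CPM against 34.3 to 61.4 CPM. Atp5g3 lay at 202 to 259 CPM.

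On CD, strain background was associated with the level of nearly every subunit gene. By limma-voom's F test of equal strain means, 83 of the 84 passed an adjusted p of 0.05, as did 93.7% of all 19110 genes tested, so the count itself sets the subunits little apart. The exception was Cox6a2 (adjusted p = 0.31). The fold between the highest and lowest strain mean had a median of 1.40 and was below 1.5 for 59 genes, 1.5 to 2 for 16, 2 to 4 for 3, and 4 or more for 6. In bulk liver, fewer cells of a type and less RNA per cell cannot be told apart. The cohorts of the labels were not balanced over strains, and WSB/EiJ shared none with another strain, so strain and cohort cannot be fully told apart in these levels.

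On the TMM scale C57BL/6J and DBA/2J lay mostly below the other strains and WSB/EiJ and PWK/PhJ mostly above. C57BL/6J held the lowest strain mean for 36 genes and DBA/2J for 26, whereas WSB/EiJ held the highest for 38, PWK/PhJ for 18, and CAST/EiJ for 16. Against the mean of the other 6 strains, C57BL/6J had 57 genes lower (28.4% of all genes were lower) and 5 higher (29.5%), with a median log2 difference of -0.21. DBA/2J had 52 lower (19.4%) and 3 higher (22.9%), with a median of -0.17, though that of its 4 complex II genes was 0.01. WSB/EiJ had 59 higher (25.4%) and 2 lower (23.8%), with a median of 0.19, and PWK/PhJ had 44 higher (30.2%) and 7 lower (28.4%), with a median of 0.12. All 17 complex V values were positive in WSB/EiJ, and 16 passed. The 5 exceptions that were higher in C57BL/6J were Ndufs5 (0.65), Cox7a1 (0.69), Cox7a2l (0.82), Ndufa4l2 (0.88), and Ndufa7 (0.10), and the 2 lower in WSB/EiJ were Cox7a1 (-0.62) and Ndufs4 (-0.44). In DBA/2J Ndufs5 (0.52) and Ndufa4l2 (0.74) were among the exceptions. The other strains were mixed. CAST/EiJ had 29 higher (32.4%) and 20 lower (31.5%), 129S1/SvImJ had 24 higher (23.6%) and 11 lower (20.6%), and A/J had 12 higher (20.5%) and 9 lower (16.2%). The corresponding medians over all genes lay between -0.0143 and 0.00425.

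**Figure D1:**
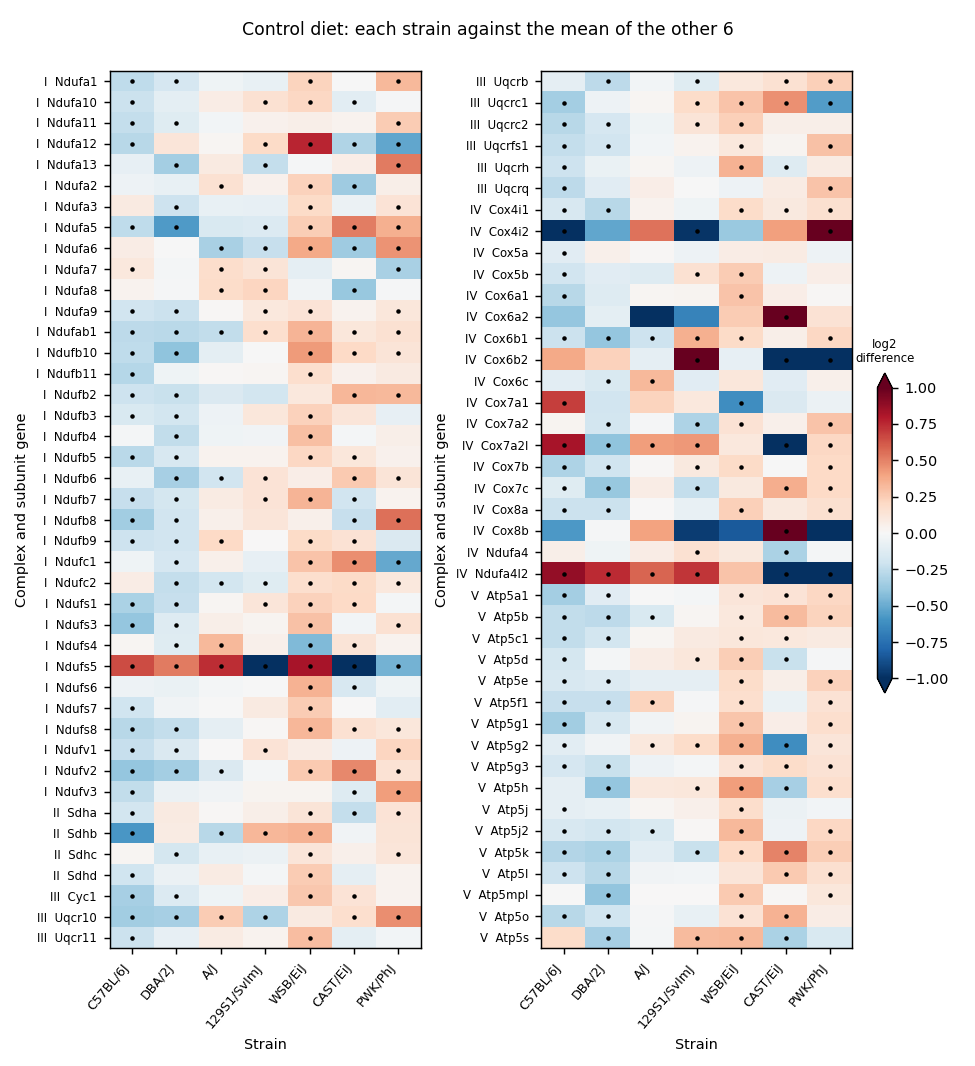
Log2 difference of each strain on CD from the mean of the other 6 strains, for 83 of the 84 subunit genes ordered by complex (I to V), with colours ending at -1 and 1 and a dot where the limma-voom adjusted p was below 0.05. Blue columns for C57BL/6J (57 of 84 genes lower) and DBA/2J (52 lower) stand against red columns for WSB/EiJ (59 higher) and PWK/PhJ (44 higher) on the TMM scale, while with library totals C57BL/6J had 23 lower and 18 higher and WSB/EiJ 15 higher and 11 lower.

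These differences were counted in CPM scaled by TMM, a method that sets the bulk of genes equal between libraries. When library totals were used in place of TMM, an alternative chosen after seeing the data, the median of all genes moved to 0.16 in C57BL/6J and to -0.19 in WSB/EiJ. The split was then 18 higher and 23 lower in C57BL/6J and 15 higher and 11 lower in WSB/EiJ, with subunit medians of -0.04 and 0.02. Such rescaling shifts nearly all genes of a library alike, so the distance of the subunits from the median of all genes could hardly change. The direction of many single genes depended on the scaling. The split became 6 higher and 28 lower in A/J and 17 higher and 32 lower in CAST/EiJ. It remained mainly lower in DBA/2J (6 higher, 40 lower) and mainly higher in PWK/PhJ (55 higher, 7 lower).

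Some subunits departed far from this general order. Cox7a2l, a relative of Cox7a2 known for joining complexes III and IV into supercomplexes, ranged on CD from 15.6 to 19.9 CPM (median 16.9) in CAST/EiJ to 59.3 to 86.6 CPM (median 73.6) in C57BL/6J. Its means were 73.4 ± 8.35 CPM (SD, n = 8) in C57BL/6J, 58.1 in 129S1/SvImJ, 57.3 in A/J, 50.9 in PWK/PhJ, 47.7 in WSB/EiJ, 35.3 in DBA/2J, and 17.4 ± 1.57 CPM (SD, n = 7) in CAST/EiJ. No mouse of another strain reached the CAST/EiJ range, and 129S1/SvImJ and A/J overlapped. The log2 difference from the other strains was 0.82 in C57BL/6J (SE 0.04, adjusted p = 1.96e-30), 0.44 in 129S1/SvImJ, 0.42 in A/J (adjusted p = 1.22e-10), and -1.59 in CAST/EiJ, and the F test gave an adjusted p of 7.15e-48. On WD the order at both ends was the same, with 72.3 CPM in C57BL/6J and 16.9 CPM in CAST/EiJ.

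Ndufs5, an accessory subunit of complex I on its intermembrane side, fell into a high and a low set of strains. On CD the means were 31.5 CPM in WSB/EiJ, 29.8 in A/J, 28.4 in C57BL/6J, and 26.2 in DBA/2J, while PWK/PhJ had 14.6, 129S1/SvImJ 10.1, and CAST/EiJ 9.58 CPM. The lowest mouse of the first 4 strains had 23.4 CPM and the highest of the other 3 had 17.0 CPM, so these sets did not overlap. Neighbours in the order overlapped within the first set, and in the second 129S1/SvImJ and CAST/EiJ overlapped while PWK/PhJ (12.5 to 17.0 CPM) lay above both. The F test gave an adjusted p of 2.76e-46. In 129S1/SvImJ the log2 difference from the other strains was -1.08 (SE 0.06, adjusted p = 7.48e-29), in contrast to that strain's general level.

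Cox6b2, known as the testis isoform of a complex IV subunit, was present in 129S1/SvImJ at 5.96 to 11.9 CPM on CD (median 8.43; 284 to 547 reads) and at 6.75 to 14.8 CPM on WD (331 to 755 reads). The mice of the other 6 strains held 0 to 54 reads. In 129S1/SvImJ the log2 difference on CD was 5.66 (SE 0.20, adjusted p = 8.27e-42). CAST/EiJ and PWK/PhJ, with 0 to 7 reads per mouse on CD, differed by -3.05 each (adjusted p = 1.82e-06 and 3.97e-06). Of the 8 genes tested within 60 kb of this locus on chromosome 7 (4751792 to 4753094 in GRCm38, minus strand), Cox6b2 included, Kmt5c (0.45) and Tmem238 (0.37) were also higher in 129S1/SvImJ and the other 5 did not pass the test. These neighbours were taken by position. Even in 129S1/SvImJ, Cox6b2 reads on CD came to 4.72% of those of its partner Cox6b1.

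**Figure D2:**
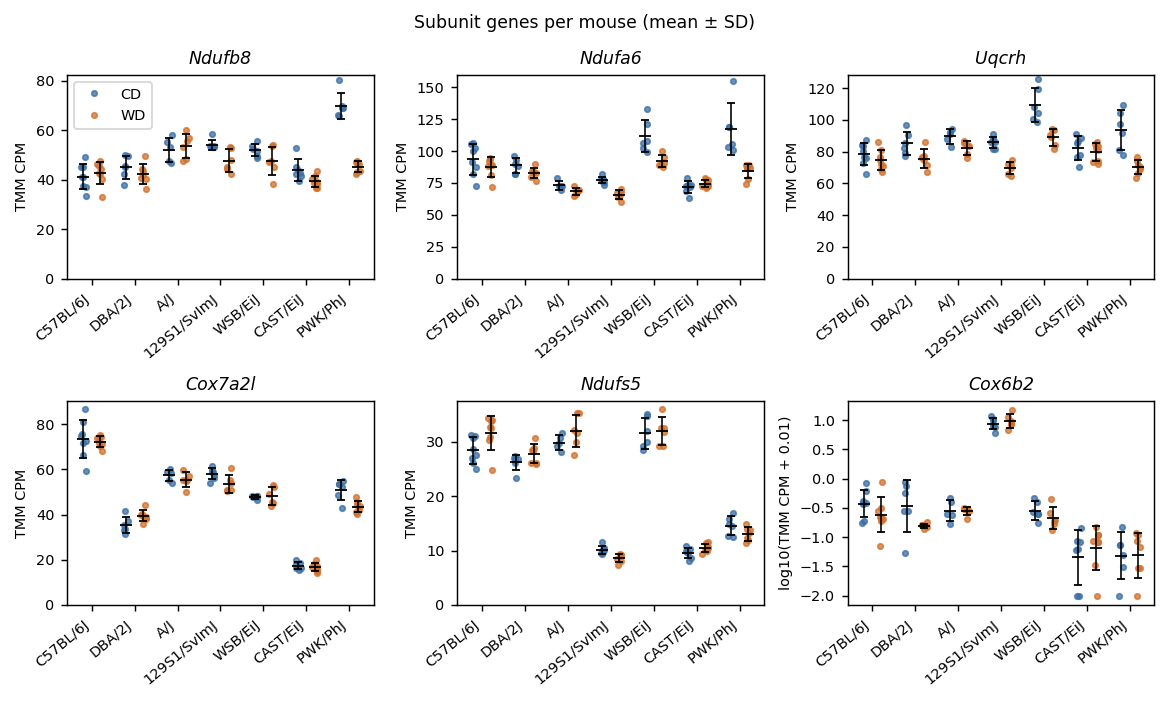
TMM CPM of 6 subunit genes in each mouse (points), with the group mean and SD, by strain and diet (the Cox6b2 panel is on a log10 scale after adding 0.01 CPM). Ndufb8 separates the diets in PWK/PhJ, Cox7a2l is lowest in CAST/EiJ, Ndufs5 falls into 4 high and 3 low strains, and Cox6b2 is highest in 129S1/SvImJ.

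Smaller differences concerned single subunits in single strains. Ndufa12, an accessory subunit of complex I, reached 43.5 ± 1.68 CPM (SD, n = 6) in WSB/EiJ on CD against strain means of 20.5 to 31.1 CPM elsewhere, a log2 difference of 0.76 (SE 0.05, adjusted p = 9.09e-22). The 6 mice of WSB/EiJ lay at 41.5 to 45.5 CPM, above the highest of the other strains (35.0 CPM). Atp5g2 was 34.3 ± 1.84 CPM (SD, n = 7) in CAST/EiJ against 46.6 to 61.4 CPM (F test, adjusted p = 5.76e-28). It overlaps the microRNA gene Mir688. Ndufa5, an accessory subunit of the peripheral arm, was lowest in DBA/2J, at 25.0 ± 1.49 CPM (SD, n = 6), with a log2 difference of -0.57 (SE 0.06, adjusted p = 1.04e-12). It was highest in CAST/EiJ (47.6 CPM), where its mice overlapped those of PWK/PhJ and WSB/EiJ.

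Members of the core enzymes also varied. Uqcrc1, a core subunit of complex III, ranged in strain mean from 148 CPM in PWK/PhJ to 271 CPM in CAST/EiJ (F test, adjusted p = 2.61e-23). Ndufv2, an iron-sulfur subunit at the entry point of NADH electrons, ranged from 69.8 CPM in C57BL/6J to 116 CPM in CAST/EiJ (adjusted p = 7.19e-24). Sdhb, the iron-sulfur subunit of complex II, ranged from 135 CPM in C57BL/6J to 234 CPM in WSB/EiJ (adjusted p = 1.02e-19). Atp5h, a subunit of the peripheral stalk of ATP synthase, ranged from 81.6 CPM in DBA/2J to 132 CPM in WSB/EiJ (adjusted p = 9.43e-21). The order of the strains thus differed from subunit to subunit within the general pattern, and CAST/EiJ stood first for Uqcrc1 and Ndufv2 but next to last for Atp5h.

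Low-level isoforms showed the widest relative spread and rested on few reads. Ndufa4l2, a paralog of Ndufa4 known as a hypoxia target, had CD means of 1.07 to 1.56 CPM in 5 strains but 0.411 CPM in CAST/EiJ and 0.294 CPM in PWK/PhJ (10 to 19 reads per mouse). In PWK/PhJ the log2 difference was -1.85 (SE 0.23, adjusted p = 2.08e-11), and it was 0.88 in C57BL/6J, 0.74 in DBA/2J, 0.72 in 129S1/SvImJ, and 0.58 in A/J, each of which passed. The gene overlaps Shmt2 on the opposite strand, and whether the counting used strand is not given in the sources used here. Cox4i2, the isoform known from lung, had 15 to 29 reads per PWK/PhJ mouse on CD and at most 20 in any other CD mouse. In PWK/PhJ the log2 difference was 2.17 (SE 0.25, adjusted p = 2.32e-12), against -1.26 in C57BL/6J and -0.98 in 129S1/SvImJ. The C57BL/6J call was lost with edgeR (adjusted p = 0.0507) and DESeq2 (adjusted p = 0.0520).

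The muscle isoforms were measured beside markers of striated muscle. Cox8b held 2 to 68 reads per CAST/EiJ mouse on CD, a log2 difference of 3.41 (SE 0.47, adjusted p = 1.25e-09), and Cox6a2 held 0 to 213 reads there, a difference of 1.76 (SE 0.65, adjusted p = 0.0143). Cox6a2 overlaps Itgad on the opposite strand. Summed striated muscle markers (12 genes) lay at 0.457 to 356 CPM in these 7 mice and at 0.359 to 0.845 CPM in the 6 PWK/PhJ mice on CD. In DBA/2J 1 mouse on CD had 117.5 CPM of these markers, with 64 reads of Cox6a2 and 18 of Cox8b. Without the 13 mice above 10 CPM of these markers, an alternative chosen after seeing the data, the CAST/EiJ difference was 1.88 for Cox8b (adjusted p = 0.0181) and -1.99 for Cox6a2 (adjusted p = 0.0756). Cox8b reached 10 reads in 11 mice, and without those of CAST/EiJ it would have missed the rule of 10 reads in at least 5 mice. Its tests in CAST/EiJ are therefore not independent of how the genes were chosen. Cox7a1, the muscle isoform of Cox7a2, was lowest in WSB/EiJ (0.540 ± 0.217 CPM, SD, n = 6), with a log2 difference of -0.62 (SE 0.22, adjusted p = 0.0138).

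The response to WD was examined strain by strain. The summed CPM of the 84 genes was lower on WD in PWK/PhJ (8798 ± 584, n = 7, against 10279 ± 709 on CD, n = 6), in 129S1/SvImJ (8779 ± 374, n = 6, against 9670 ± 330, n = 7), and in WSB/EiJ (9777 ± 634, n = 6, against 10544 ± 422, n = 6; all SD). CAST/EiJ (9873 on CD, 9970 on WD), A/J (9442, 9494), DBA/2J (8694, 8677), and C57BL/6J (8395, 8559) differed by less than their SDs. These sums are a description, and the tests below are per gene. Within the cohorts given in the labels (2 per strain, 3 in CAST/EiJ), the log2 ratio of the sums was -0.22 and -0.23 in PWK/PhJ, -0.11 and -0.16 in 129S1/SvImJ, and -0.10 and -0.14 in WSB/EiJ, while it lay between -0.03 and 0.07 in every cohort of the other 4 strains.

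**Figure D3:**
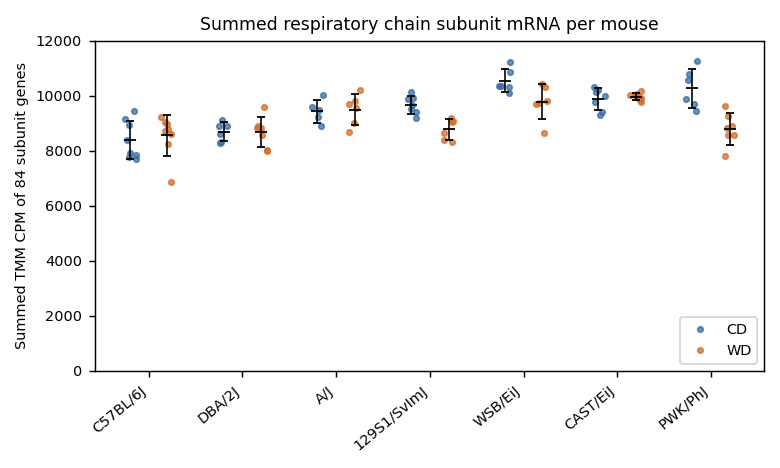
Summed TMM CPM of the 84 subunit genes in each mouse (points), with the group mean and SD, for CD (blue) and WD (orange) in 7 strains. The WD mean lies below the CD mean by more than either SD in PWK/PhJ (8798 against 10279), 129S1/SvImJ (8779 against 9670), and WSB/EiJ (9777 against 10544). As a share of gene reads, without TMM, the means were 1.03% on CD and 0.994% on WD in PWK/PhJ. They were 0.858% and 0.945% in A/J, and 0.910% and 1.00% in CAST/EiJ.

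In PWK/PhJ, 63 of the 84 subunit genes fell on WD (14.5% of all genes fell) and 0 rose (15.1%). The median log2 fold change was -0.24 over the subunits and -0.01 over all genes, and 79 of the 84 values were negative. All complexes took part, with 27 of 36 genes lower in complex I, 2 of 4 in complex II, 8 of 9 in complex III, 12 of 18 in complex IV, and 14 of 17 in complex V. For 11 genes every mouse on WD lay below every mouse on CD (6.02% of all genes), and for 1, Cox6a2, every mouse lay above (6.59%). At an unadjusted p under 0.05 limma-voom had 71 lower and 0 higher, and edgeR (65 lower) and DESeq2 (63 lower) also called 0 higher. Without CD replicate 5, 55 genes fell. With library totals in place of TMM, 19 fell and 0 rose, with a median of -0.07 against 0.16 for all genes. The share of unmapped reads was 3.50% ± 0.708 (SD, n = 6) on CD and 7.88% ± 1.18 (SD, n = 7) on WD in this strain, and its part in the result was not tested.

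Promoters are printed for the 3 genes that fell most in PWK/PhJ, because each holds 1 match to a different motif linked to respiratory genes. The sequences are from RefSeq (GRCm38.p6), 250 bases before to 50 after the start, 5′ to 3′ on the gene's strand, with the matched letters in capitals. Ndufb8 lies at chr19:44555393-44555692, Ndufa6 at chr15:82354242-82354541, and Uqcrh at chr4:116075021-116075320, all on the minus strand. The capitals mark YY1's AAGATGGC in Ndufb8, NRF1's GCGC and TGCGC parted by 1 base in Ndufa6, and the ETS motif CCGGAAGT bound by GABPA, on the other strand, in Uqcrh.
Ndufb8: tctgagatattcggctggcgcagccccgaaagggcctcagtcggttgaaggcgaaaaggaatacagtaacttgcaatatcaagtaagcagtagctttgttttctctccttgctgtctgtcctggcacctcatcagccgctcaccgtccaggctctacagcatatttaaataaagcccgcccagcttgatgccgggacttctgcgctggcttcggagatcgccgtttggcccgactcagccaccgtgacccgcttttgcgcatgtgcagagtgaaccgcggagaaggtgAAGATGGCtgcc
Ndufa6: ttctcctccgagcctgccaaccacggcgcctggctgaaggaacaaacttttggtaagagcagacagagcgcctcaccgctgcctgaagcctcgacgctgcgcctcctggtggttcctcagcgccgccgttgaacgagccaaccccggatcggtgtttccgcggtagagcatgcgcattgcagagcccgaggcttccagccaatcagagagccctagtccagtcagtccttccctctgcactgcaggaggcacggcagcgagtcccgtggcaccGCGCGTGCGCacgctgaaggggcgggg
Uqcrh: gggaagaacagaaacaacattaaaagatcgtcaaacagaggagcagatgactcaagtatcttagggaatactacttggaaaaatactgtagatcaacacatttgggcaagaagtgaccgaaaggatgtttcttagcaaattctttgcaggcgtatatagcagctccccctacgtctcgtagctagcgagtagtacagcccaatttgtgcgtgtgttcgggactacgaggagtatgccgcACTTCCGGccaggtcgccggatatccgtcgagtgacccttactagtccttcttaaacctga

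Among the 68 subunit genes with a promoter in the RefSeq table, the NRF1 motif was in 16 (23.5%, against 4.78% of all 27025 promoters), YY1 in 9 (13.2%, against 2.88%), and the ETS motif in 5 (7.35%, against 4%), counting both strands. The ERR motif TCAAGGTCA was in 2 (2.94%, against 0.407%). At least 1 of the first 3 motifs was in 28 subunit promoters (41.2%, against 10.8%). Matches stood in 23 of the 54 matched genes that fell in PWK/PhJ and in 5 of the other 14. A match describes letters in this window and not a bound site.

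Ndufb8, an accessory subunit in the membrane arm of complex I, changed most. Its PWK/PhJ mice had 65.8 to 80.2 CPM on CD (median 68.9, n = 6) and 42.4 to 47.6 CPM on WD (median 46.3, n = 7). The ranges were separate, and the log2 fold change was -0.63 (SE 0.07, adjusted p = 5.8e-11). On CD, PWK/PhJ lay above every other strain, whose mice had 33.6 to 58.4 CPM, and on WD it lay within the range of the other strains (33.2 to 59.9 CPM). Ndufb8 overlaps the annotated gene Gm20538 on the same strand. In the other strains the fold changes lay between -0.19 (129S1/SvImJ, adjusted p = 0.0443) and 0.06 (C57BL/6J, adjusted p = 0.563).

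Ndufa6, a small accessory subunit of the peripheral arm of complex I, had 101 to 155 CPM on CD (median 113) and 74.4 to 89.1 CPM on WD (median 86.7) in PWK/PhJ, again without overlap. It fell by 0.46 on the log2 scale (SE 0.07, adjusted p = 4.71e-08). Uqcrh, the hinge protein that lies beside cytochrome c1 in complex III, had 78.2 to 110 CPM on CD (median 94.7) and 63.5 to 76.4 CPM on WD (median 70.2). It fell by 0.41 (SE 0.06, adjusted p = 3.84e-07). Both genes also fell in 129S1/SvImJ and WSB/EiJ, by 0.24 and 0.27 for Ndufa6 and by 0.30 and 0.29 for Uqcrh.

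In complex II the membrane anchors fell in PWK/PhJ and the catalytic pair did not pass the test. Sdhd had 138 to 158 CPM on CD and 110 to 136 CPM on WD and fell by 0.32 (SE 0.06, adjusted p = 3.7e-05). Sdhc fell by 0.22 (SE 0.05, adjusted p = 0.000766), with ranges of 135.7 to 165 CPM and 116 to 135.6 CPM that just parted. Sdhb had a fold change of -0.13 (adjusted p = 0.181) and the flavoprotein Sdha of -0.05 (adjusted p = 0.61), both with overlapping ranges.

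The liver forms of complex IV and parts of ATP synthase fell as well in PWK/PhJ. Cox8a fell by 0.32 (SE 0.06, adjusted p = 3.16e-05), from 164 to 244 CPM on CD to 135 to 166 CPM on WD, and Cox4i1, which overlaps Emc8 on the opposite strand, fell by 0.32 (adjusted p = 6.92e-06). Atp5h had 102 to 138 CPM on CD and 78.7 to 100.3 CPM on WD and fell by 0.35 (SE 0.06, adjusted p = 7.38e-07). Atp5g2 had 50.7 to 56.6 CPM on CD and 40.6 to 45.3 CPM on WD and fell by 0.31 (SE 0.05, adjusted p = 2.13e-07). For both ATP synthase genes the diets were separate. Of the subunits of the catalytic head, Atp5b fell by 0.19 (SE 0.05, adjusted p = 0.00284), and Atp5a1 (849.6 to 1089 CPM on WD, 997.9 to 1106 CPM on CD) had a fold change of -0.10 (adjusted p = 0.227). Of the 21 genes that did not pass, 6 were low-level isoforms (Cox4i2, Cox6a2, Cox6b2, Cox7a1, Cox8b, and Ndufa4l2).

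Cell type markers moved with diet in the same PWK/PhJ mice. Of 10 hepatocyte markers 6 fell and 0 rose, and their summed level was 121379 to 146513 CPM on CD and 78186 to 104992 CPM on WD. Of 10 stellate cell and fibroblast markers 6 rose (152 to 231 CPM on CD, 326 to 732 CPM on WD), as did 4 of 5 cholangiocyte markers (64.5 to 140 CPM on CD, 159 to 525 CPM on WD), 6 of 10 Kupffer cell markers (61.8 to 403 CPM on CD, 329 to 499 CPM on WD), and 2 of 10 leukocyte markers (10.8 to 22.4 CPM on CD, 22.0 to 38.2 CPM on WD). Endothelial markers were split, with 1 of 8 up and 1 down, and 0 of 4 adipocyte and 0 of 11 striated muscle markers tested passed. Markers also moved in the strains with few or no subunit calls. The mean summed hepatocyte level was 131081 CPM on CD and 87445 CPM on WD in C57BL/6J (5 of 10 fell). It was 128487 and 85455 CPM in CAST/EiJ (2 of 10 fell), and 211449 and 147648 CPM in A/J (4 of 10 fell). In DBA/2J it was 131033 and 116664 CPM (3 of 10 fell, 1 rose). Of 10 stellate cell and fibroblast markers 5 rose in C57BL/6J, 2 in A/J, and 0 in CAST/EiJ and DBA/2J. Of 10 Kupffer cell markers 5 rose in C57BL/6J, 1 in CAST/EiJ, and 0 in A/J and DBA/2J. Of 10 leukocyte markers 4 rose in C57BL/6J and 1 in A/J. Of 5 cholangiocyte markers 1 rose in C57BL/6J and 1 in CAST/EiJ, and 1 fell in DBA/2J. The part of any of these shifts in the subunit levels was not tested.

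In 129S1/SvImJ, 32 subunit genes fell on WD (13.6% of all genes) and 0 rose (14.5%), with a median of -0.12 against -0.00334 for all genes and 74 of 84 values negative. DESeq2 called 1 higher, edgeR called 0, and 2 were higher at an unadjusted p under 0.05. By complex, 16 were in complex I, 1 in complex II, 4 in complex III, 2 in complex IV, and 9 in complex V. In 20 genes every mouse on WD lay below every mouse on CD (7.18%). With library totals the counts were 11 lower and 1 higher, with a median of -0.04 against 0.07 for all genes, and with upper-quartile normalization 13 lower and 1 higher. Sdhd, a membrane anchor of complex II, had 135 to 153 CPM on CD (median 144) and 100 to 118 CPM on WD (median 110), and it fell by 0.39 (SE 0.06, adjusted p = 1.2e-06). Uqcrh had 81.4 to 91.4 CPM on CD and 64.8 to 74.9 CPM on WD and fell by 0.30 (SE 0.06, adjusted p = 0.000193). Neither gene's diets overlapped. In the same mice 7 of 10 leukocyte and 7 of 10 Kupffer cell markers rose and 7 of 10 hepatocyte markers fell, and their part was not tested. Of the other lists, 4 of 10 stellate cell and fibroblast, 2 of 8 endothelial, 1 of 5 cholangiocyte, and 1 of 4 adipocyte markers rose, 1 endothelial marker fell, and 0 of 11 striated muscle markers passed. Unmapped reads were 4.55% ± 0.664 (SD, n = 7) on CD and 5.57% ± 0.673 (SD, n = 6) on WD, and their part was not tested.

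In WSB/EiJ, 11 subunit genes fell (3.97% of all genes) and 0 rose (4.97%), with a median of -0.11 against 0.01 and 71 of 84 values negative. Neither edgeR nor DESeq2 called any gene higher, and 0 were higher at an unadjusted p under 0.05. In 7 genes the WD mice all lay below the CD mice (1.86%), and for 1, Cox6a2, above (2.50%). Ndufb10, an accessory subunit of the membrane arm of complex I, had 94.3 to 112 CPM on CD (median 98.0) and 72.3 to 87.6 CPM on WD (median 80.9). It fell by 0.32 (SE 0.07, adjusted p = 0.000682), and the ranges were separate. Uqcrh had 98.7 to 126 CPM on CD and 81.4 to 94.5 CPM on WD and fell by 0.29 (SE 0.07, adjusted p = 0.00126). Ndufa6 fell by 0.27 (SE 0.07, adjusted p = 0.00443), and its ranges of 99.0 to 133 CPM and 87.3 to 100 CPM just overlapped. Of the markers in WSB/EiJ, 3 of 10 for hepatocytes fell (150858 to 186877 CPM on CD, 78951 to 115838 CPM on WD) and 2 of 10 for leukocytes rose, while 0 of 10 for Kupffer cells, 0 of 10 for stellate cells, and 0 of 5 for cholangiocytes passed, and their part was not tested. With library totals 3 genes fell (median -0.03 against 0.09 for all genes), and without the mice above 10 CPM of striated muscle markers 4 fell. Unmapped reads were 4.52% ± 1.61 (SD, n = 6) on CD and 7.42% ± 2.52 (SD, n = 6) on WD, and their part was not tested either.

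**Figure D4:**
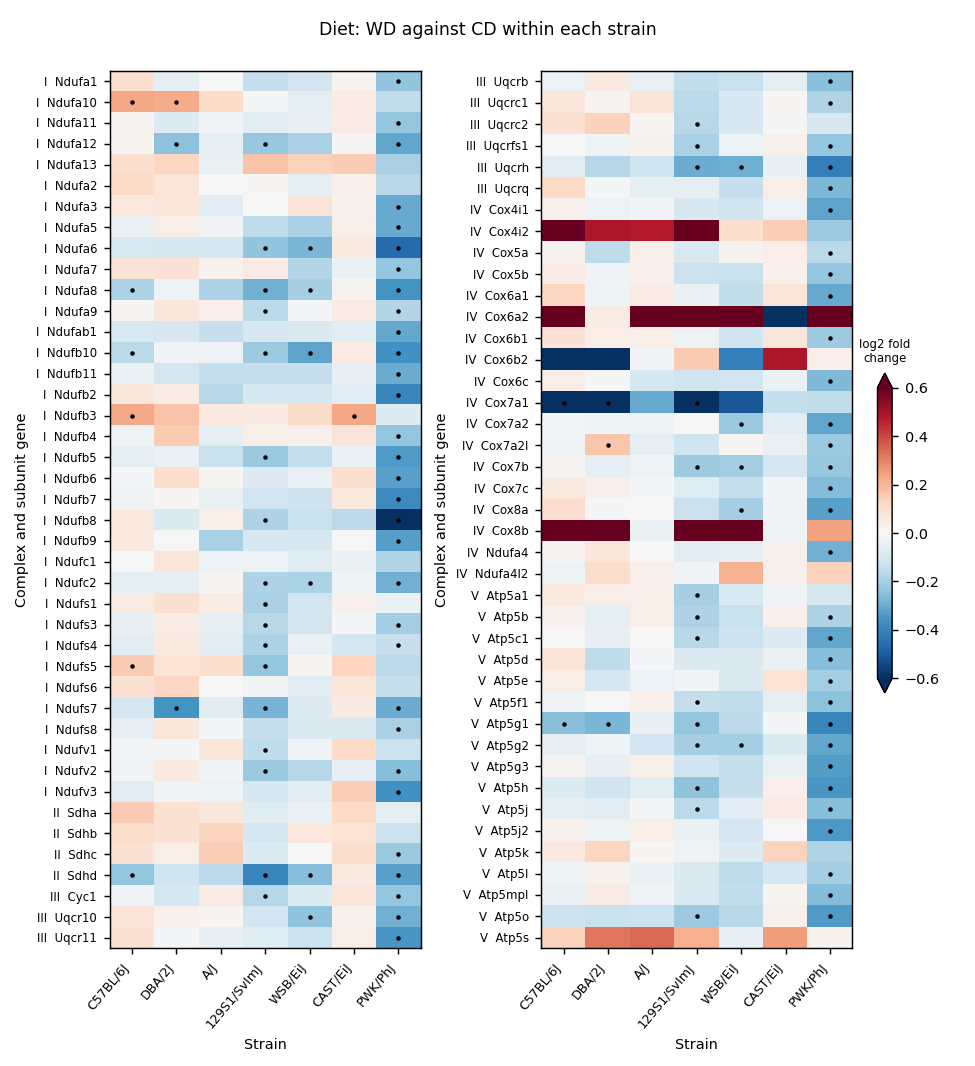
Log2 fold change WD vs CD of 83 of the 84 subunit genes in each strain, ordered by complex (I to V), with colours ending at -0.6 and 0.6 and a dot where the limma-voom adjusted p was below 0.05. The PWK/PhJ column is mostly blue (63 of all 84 genes passed), while 32 passed in 129S1/SvImJ, 11 in WSB/EiJ, and 0 in A/J on the TMM scale, while with library totals 19, 12, 3, and 16 passed.

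The other 4 strains had few changes, below the share of all genes. In C57BL/6J, 3 subunit genes rose (14.3% of all genes) and 5 fell (11.9%), and in DBA/2J 3 rose (10.2%) and 4 fell (7.77%). In C57BL/6J those that rose were Ndufa10, Ndufb3, and Ndufs5, and those that fell were Ndufa8, Ndufb10, Sdhd, Cox7a1, and Atp5g1. In DBA/2J Ndufa10 and Cox7a2l were among those that rose, and Ndufa12, Ndufs7, Cox7a1, and Atp5g1 fell. In CAST/EiJ 1 rose (9.77%) and 0 fell (9.73%). In A/J limma-voom called 0 higher (4.39%) and 0 lower (4.64%), edgeR 0, and DESeq2 1, while at an unadjusted p under 0.05 limma-voom had 9 of 84. Without WD replicate 3, an alternative chosen after seeing the data, C57BL/6J had 13 higher and 3 lower. With library totals 39 genes rose in CAST/EiJ and 16 in A/J, where the medians of 0.15 and 0.12 were close to those of all genes (0.14 and 0.13). Ranges without overlap were few, with 2 genes below in DBA/2J (Ndufs7 and Atp5o; 2.60%), 1 in A/J (Ndufb5; 3.94%), and 0 in C57BL/6J (0.973%) and CAST/EiJ (1.28%). In CAST/EiJ every WD mouse lay above every CD mouse for 1, Sdhc (0.952%).

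Ndufa10, an accessory subunit of complex I, rose in C57BL/6J from 93.1 to 120 CPM on CD (median 108) to 93.8 to 144 CPM on WD (median 129), a log2 fold change of 0.23 (SE 0.05, adjusted p = 0.000496). The ranges overlapped, and WD replicate 3 was the lowest of the WD mice. The call was lost in a separate fit of the strain (adjusted p = 0.0631). Ndufa10 rose in DBA/2J as well (0.22, adjusted p = 0.00406), there with every WD mouse (124 to 149 CPM) above every CD mouse (105 to 123 CPM), as for 4.68% of all genes. In PWK/PhJ its fold change was -0.15 (adjusted p = 0.0515). Ndufb3, another accessory subunit, was the gene that rose in CAST/EiJ, from 31.5 to 40.7 CPM on CD to 37.6 to 47.5 CPM on WD (log2 fold change 0.23, SE 0.08, adjusted p = 0.0311). This call was lost with cohort as a covariate (adjusted p = 0.136), with no filter (0.0710), and without the mice rich in muscle markers (0.752). With cohort as a covariate 1 gene, the muscle isoform Cox6a2, was called lower in CAST/EiJ and 0 higher.

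Ndufs7, a core subunit that carries the last iron-sulfur cluster before ubiquinone, fell in DBA/2J from 48.1 to 62.1 CPM on CD (median 51.8) to 35.1 to 47.5 CPM on WD (median 41.8). The ranges were separate and the log2 fold change was -0.36 (SE 0.07, adjusted p = 8.85e-05). Atp5g1 fell in C57BL/6J by 0.25 (SE 0.06, adjusted p = 0.00147), from 97.2 to 130 CPM to 73.7 to 104 CPM, and in DBA/2J by 0.27 (SE 0.07, adjusted p = 0.00273). Cox7a1 fell by 1.18 in DBA/2J (SE 0.29, adjusted p = 0.00155), by 0.85 in 129S1/SvImJ (SE 0.26, adjusted p = 0.00882), and by 0.81 in C57BL/6J (SE 0.20, adjusted p = 0.00095). Its reads were few, for example 18 to 43 per mouse on CD and 9 to 21 on WD in DBA/2J.

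Averaged over the 7 strains with equal weights, 48 subunit genes were lower on WD (24.5% of all genes) and 3 higher (27.1%), with a median of -0.07. With library totals 13 were lower and 25 higher (median 0.02, against 0.09 for all genes), and with upper-quartile normalization 35 and 5. Sdhd (-0.20, SE 0.02, adjusted p = 1.42e-11), Uqcrh (-0.20, SE 0.02, adjusted p = 3.13e-11), and Atp5g2 (-0.14, SE 0.02, adjusted p = 2.2e-10) had the smallest p among those that fell. The 3 that rose were Atp5s, known as coupling factor B (0.18, SE 0.05, adjusted p = 0.00191), Ndufb3 (0.11, SE 0.03, adjusted p = 0.00323), and Ndufa10 (0.06, SE 0.02, adjusted p = 0.0265). The Ndufa10 call was lost without the mice rich in muscle markers (adjusted p = 0.0608).

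Whether the diet effect itself differed between strains was tested with an F test in the same fit, which 55 of the 84 genes passed (37.5% of all genes). They were 23 genes of complex I, 2 of complex II, 7 of complex III, 11 of complex IV, and 12 of complex V. The smallest p in each complex belonged to Ndufb8 (adjusted p = 2.05e-06) and Ndufa6 (0.000186) in complex I, Sdhd (0.000607) and Sdhc (0.000787) in complex II, Cox8a (0.00083) and Cox7a2 (0.00269) in complex IV, and Atp5h (0.00142) and Atp5g2 (0.00302) in complex V. Those of complex III were Uqcrh (0.00272) and Uqcrc2 (0.00718), and Uqcrc2 overlaps Pdzd9 on the opposite strand.

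On the TMM scale the most genes differed in PWK/PhJ. Against the mean effect of the other 6 strains, 52 subunit genes had a lower diet effect in PWK/PhJ (8.70% of all genes) and 0 a higher one (7.59%), with a median difference of -0.21. By edgeR 53 genes and by DESeq2 54 were lower and 0 higher. The count was 23 without CD replicate 5, 31 without WD replicate 2, and 15 with library totals. Ndufb8 differed by -0.55 (adjusted p = 2.21e-07), Ndufa6 by -0.34 (adjusted p = 0.000434), Sdhc, the other anchor of complex II, by -0.27 (adjusted p = 0.000446), and Uqcrh by -0.24 (adjusted p = 0.00979).

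CAST/EiJ had 11 genes of higher diet effect (7.59% of all genes) and 0 lower (6.91%), among them Sdhd (0.30, adjusted p = 0.000569) and Ndufa6 (0.26, adjusted p = 0.0035). Without the mice rich in muscle markers, 7 of them in CAST/EiJ, the count was 0, and with library totals it was 21, above the 15 of PWK/PhJ. The median difference in CAST/EiJ was 0.09, with 72 of 84 values positive. It was much the same in C57BL/6J (0.09, 75 positive), DBA/2J (0.08, 73 positive), and A/J (0.07, 67 positive). For each of these strains the other 6 include PWK/PhJ. In 129S1/SvImJ 3 genes had a lower effect (2.94%), Sdhd (-0.22, adjusted p = 0.0367), Ndufs5 (-0.29), and Ndufs1 (-0.21). In C57BL/6J Ndufa10, Ndufb8, and Cox8a had a higher one (2.24%), and the count became 21 without WD replicate 3. In DBA/2J 4 genes had a higher effect (3.88%), Ndufa10, Uqcrc2, and Cox7a2l among them, and Ndufs7 had a lower one (3.89%). Of the 84, 0 passed in A/J (0.466% of all genes in either direction) or WSB/EiJ (0.947%) by limma-voom, edgeR, or DESeq2, and 6 and 5 had an unadjusted limma-voom p under 0.05.

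Isoform proportions were tested within each strain as the log2 ratio of reads of an isoform to its partner, with an exact permutation test of each of 9 pairs in 7 strains (63 in all, two-sided, p adjusted over the 63), of which 6 passed. Atp5g1 fell against Atp5g3 in C57BL/6J, from a mean log2 ratio of -0.93 ± 0.06 (SD, n = 8) to -1.19 ± 0.11 (SD, n = 8; exact permutation, adjusted p = 0.00979). Its share of subunit c RPKM there, which is set low by its principal transcript of 4715 bases, was 6.20% on CD and 5.25% on WD. Cox7a1 fell against Cox7a2 in 129S1/SvImJ, by 0.84 on the log2 scale (exact permutation, adjusted p = 0.0245), and in DBA/2J, by 1.15 (exact permutation, adjusted p = 0.0367).

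Cox6a2 rose against Cox6a1 in 129S1/SvImJ by 2.05 (exact permutation, adjusted p = 0.0367), in WSB/EiJ by 1.77 (exact permutation, adjusted p = 0.0341), and in PWK/PhJ by 1.45 (exact permutation, adjusted p = 0.0245). These rested on 1 to 6 reads per mouse on CD and 5 to 32 on WD in 129S1/SvImJ, 1 to 8 and 10 to 17 in WSB/EiJ, and 3 to 6 and 6 to 18 in PWK/PhJ. The mice with 32 reads in 129S1/SvImJ and 17 in WSB/EiJ had 18.8 and 14.2 CPM of striated muscle markers. Cox6a2 overlaps Itgad, a leukocyte integrin gene, on the opposite strand, and of 10 leukocyte markers 7 rose in 129S1/SvImJ, 2 in WSB/EiJ, and 2 in PWK/PhJ. The part of either in these ratios was not tested. When mice were permuted only within cohorts, 2 of the 6 passed, Cox7a1 in 129S1/SvImJ (exact permutation, adjusted p = 0.045) and Atp5g1 in C57BL/6J (exact permutation, adjusted p = 0.0201), and the other 4 had an adjusted p of 0.05. Of Cox4i2, Cox6b2, Cox7a2l, Cox8b, Ndufa4l2, and Atp5g2, 0 of 42 ratios passed, and 2 had an unadjusted exact permutation p under 0.05.

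**Figure D5:**
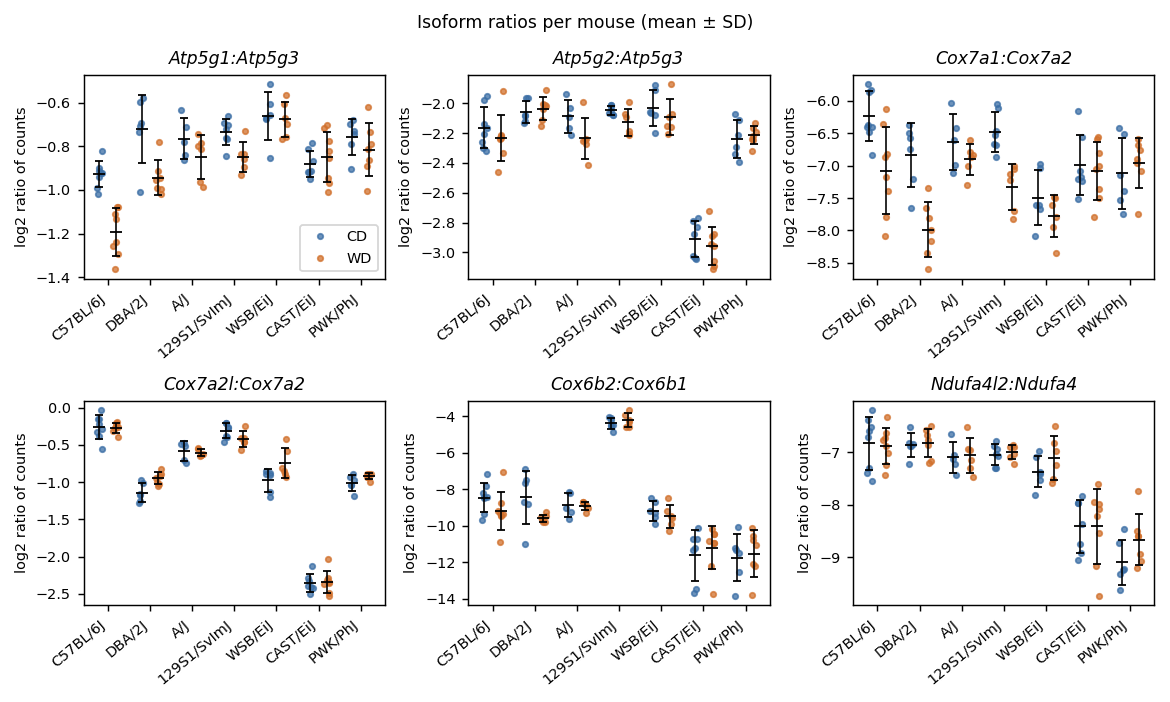
Log2 ratio of reads of 6 isoforms to their partner in each mouse (points), with the group mean and SD, for CD (blue) and WD (orange). The diets part in C57BL/6J for Atp5g1:Atp5g3 (-0.93 on CD, -1.19 on WD), while the strains part for Atp5g2, Cox7a2l, Cox6b2, and Ndufa4l2.

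Ratios also separated strains on CD, which is given as a description. The log2 ratio of Cox7a2l to Cox7a2 was -0.26 ± 0.16 (SD, n = 8) in C57BL/6J and -2.36 ± 0.12 (SD, n = 7) in CAST/EiJ. For Atp5g2 to Atp5g3 it was -2.91 ± 0.12 (SD, n = 7) in CAST/EiJ and between -2.24 and -2.03 in the other strains. Reads of Ndufa4l2 came to 0.183% of those of Ndufa4 in PWK/PhJ and 0.295% in CAST/EiJ, against 0.607 to 0.881% in the other 5 strains.

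Other genes of the pathway were counted from lists. Percentages in parentheses are the shares of all genes called in that direction. Of 47 assembly factors tested, which build the complexes without remaining in them, 15 fell (14.5%) and 1 rose (15.1%) on WD in PWK/PhJ. In CAST/EiJ 15 rose (9.77%) and 1 fell (9.73%), and in DBA/2J 11 rose (10.2%) and 0 fell (7.77%). The median log2 fold change was -0.10 in PWK/PhJ and 0.13 in CAST/EiJ. Of 14 markers of mitochondrial mass, such as citrate synthase and outer membrane channels, 7 fell (14.5%) and 0 rose (15.1%) in PWK/PhJ, with a median of -0.14. Among those that fell there were Cs (-0.28) and Vdac1 (-0.23). These are RNA levels and do not measure mitochondrial content. The paper reported no change on WD in PWK/PhJ in citrate synthase activity or in mitochondrial relative to nuclear DNA. In 129S1/SvImJ 6 mass markers fell (13.6%), with a median of -0.16. Of 15 genes for cytochrome c and coenzyme Q, 0 passed in PWK/PhJ and 3 rose in CAST/EiJ (9.77%). In C57BL/6J 4 rose (14.3%), in WSB/EiJ 3 (4.97%), in DBA/2J 2 (10.2%), and in A/J 2 (4.39%). In 129S1/SvImJ 1 rose (14.5%) and 3 fell (13.6%). Of 13 transcriptional regulators, 2 fell in PWK/PhJ (14.5%), Gabpb1 (-0.26) and the mitochondrial transcription factor Tfam (-0.20). Ppara rose there (0.62), as did 15.1% of all genes, so these counts set the regulators little apart. In 129S1/SvImJ 6 regulators fell (13.6%), among them Nrf1 (-0.44). Regulators also fell in CAST/EiJ (5, 9.73%), DBA/2J (4, 7.77%), C57BL/6J (3, 11.9%), and A/J (3, 4.64%). In C57BL/6J 1 rose (14.3%), and in WSB/EiJ 0 passed. Over the mean of the strains 10 of 13 regulators and 9 of 14 mass markers fell (24.5%). Assembly factors were mixed in that mean, where 17 rose (27.1%) and 8 fell (24.5%). The pathway genes given with values were chosen after their values were seen.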

How the data were processed

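Liver RNA from 93 mice was sequenced, and the analysis began from the table of read counts per gene that the authors deposited. The submitters' processing notes name STAR (version 2.7.1a) and mouse build GRCm38 (mm10). The strand setting of the counting and the annotation release are not given in the sources used here. Reads of every strain were mapped to the C57BL/6J genome. Symbols and positions were taken from GENCODE annotation of GRCm38, which paired 53360 of 53465 gene IDs with a symbol. Gene totals were 40020424 to 49894856 reads per mouse (median 46618609), so their number limits the precision of genes with few reads.

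Counts were filtered with filterByExpr (minimum count 10, 19110 genes kept), scaled by TMM (edgeR 4.0.16; factors 0.810 to 1.27) and fitted with limma-voom (limma 3.58.1, R 4.3.3) on 14 strain and diet groups. All p-values were adjusted by Benjamini-Hochberg over the 19110 genes, with a threshold of 0.05, and log2 fold changes with SE come from that fit. The contrasts were WD vs CD in each strain and on average, each strain's CD level and diet effect against the mean of the other 6 strains, and F tests over strains. Isoform ratios (9 pairs, 0.5 reads added to each count) were compared by exact permutation tests written with numpy 2.4.6. The code was checked against scipy 1.17.1 on simulated ratios. Alternatives were edgeR's quasi-likelihood test, DESeq2 (1.42.0), other normalizations, filters, weights and fits, each A/J and PWK/PhJ mouse left out in turn, and 3 chosen after seeing the data. These were library totals in place of TMM, leaving out 13 mice above 10 CPM of striated muscle markers, and leaving out 1 C57BL/6J mouse.

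On simulated counts for 19110 genes, limma-voom recovered 66 of 100 genes changed by 2-fold and 17 of 100 changed by 1.2-fold for WD vs CD in PWK/PhJ, with 6 false calls. The changed genes were drawn at random from all 19110 whatever their level, so these rates are not those of the subunit genes. In a simulation of A/J without changed genes it made 0 calls.

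The subunit genes, the pathway lists, and the marker lists of 8 cell types were chosen with earlier results of these data known. Genes were named by rule. These were up to 3 called genes per strain with the largest diet fold change and up to 3 with the largest CD difference, the 10 with the smallest p in the F test on CD, the 2 per complex with the smallest p in the F test of the diet effect, the 3 per direction with the smallest p for the mean diet effect, and the isoform pairs. Atp5a1, Atp5b, Atp5o, Ndufa7, Ndufa8, Ndufb2, Ndufb5, Ndufs1, Ndufs4, and Sdha were named after their values were seen. The values of 1 subunit gene are not reported here, though the counts include it. Of the 84 genes, 30 share exons with another annotated gene.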

Additional observations from a re-analysis of the deposited data

Results flagged for a closer look

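Across 476 combinations of a value and a group, 30 (6.30%) held a mouse whose gap to its nearest neighbour was large for the range of its group by Dixon's test, which flags about 1 in 20 groups by chance. The ratio of gap to range is given for each. Of the 30, 13 concerned C57BL/6J on WD, replicate 3. This mouse was lowest for the summed subunit level (0.577), Cox8a (0.556), Ndufa10 (0.641), Ndufb10 (0.581), Ndufb3 (0.75), Ndufb8 (0.553), Ndufs5 (0.624), Sdhb (0.626), Sdhc (0.644), Sdhd (0.664), Uqcrc1 (0.609), and Uqcrc2 (0.609), and highest for the ratio of Atp5g2 to Atp5g3 (0.545). DBA/2J on CD, replicate 3, was lowest for Atp5g1 (0.761) and for its ratio to Atp5g3 (0.635) and highest for the ratios Cox6a2 to Cox6a1 (0.687) and Cox8b to Cox8a (0.684).

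The other 13 were spread over 13 mice. Highest in their group were Atp5h in CAST/EiJ WD replicate 1 (0.536) and PWK/PhJ CD replicate 5 (0.628), Ndufb8 in 129S1/SvImJ CD replicate 6 (0.881) and PWK/PhJ CD replicate 2 (0.701), Ndufv2 in CAST/EiJ WD replicate 5 (0.602), and Cox8b to Cox8a in C57BL/6J CD replicate 2 (0.722). Lowest were Cox6b2 in A/J WD replicate 4 (0.673), Cox7a2l in WSB/EiJ CD replicate 6 (0.786), Ndufa10 in WSB/EiJ WD replicate 4 (0.77), Ndufs5 in DBA/2J CD replicate 2 (0.694), Cox4i2 to Cox4i1 in DBA/2J WD replicate 2 (0.572), Cox7a1 to Cox7a2 in PWK/PhJ WD replicate 7 (0.569), and Cox7a2l to Cox7a2 in PWK/PhJ WD replicate 5 (0.574).

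The diet effect differed between strains by the F test for 55 of the 84 genes. Against the mean of the other 6 strains it differed for 52 genes in PWK/PhJ, where Ndufb8 differed by -0.547, Ndufa6 by -0.337, and Uqcrh by -0.242 on the log2 scale. It differed for 11 genes in CAST/EiJ, for 5 in DBA/2J (Ndufs7, -0.23), for 3 in 129S1/SvImJ (Sdhd, -0.221), and for 3 in C57BL/6J (Ndufa10, 0.204).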

How the results depend on the processing

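Of the counts recomputed under an alternative, 269 stayed within 1.5 times the reported count and 54 did not. For genes that differed between WD and CD within a strain, counts under upper-quartile normalization were 14 in 129S1/SvImJ, 4 in CAST/EiJ, and 1 in A/J, and with library totals 12, 39, and 16, with 3 in WSB/EiJ and 19 in PWK/PhJ. With sample quality weights CAST/EiJ had 2, A/J 5, and DBA/2J 12. With edgeR there were 2 in CAST/EiJ, with DESeq2 3 there and 1 in A/J, with at least 10 counts in every mouse 2 and 1, and with no filter 0 and 7 in WSB/EiJ. A separate fit per strain gave 2 in C57BL/6J and 2 in A/J. Without the mice rich in muscle markers CAST/EiJ had 0, A/J 1, and WSB/EiJ 4, and without C57BL/6J WD replicate 3 there were 16 in C57BL/6J. Leaving out each A/J mouse in turn gave 0 to 1 there.

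For genes whose diet effect differed from that of the other strains, edgeR gave 5 in C57BL/6J, and DESeq2 gave 8 in C57BL/6J, 8 in DBA/2J, and 5 in 129S1/SvImJ. Upper-quartile normalization gave 0 in C57BL/6J, 3 in DBA/2J, and 0 in 129S1/SvImJ, and library totals gave 0, 2, and 8, with 21 in CAST/EiJ and 15 in PWK/PhJ. Quality weights gave 6 in C57BL/6J, 3 in A/J, and 18 in 129S1/SvImJ, and no filter gave 2 in DBA/2J and 0 in 129S1/SvImJ. Without the mice rich in muscle markers there were 3 in DBA/2J, 0 in 129S1/SvImJ, and 0 in CAST/EiJ, without C57BL/6J WD replicate 3 there were 21 in C57BL/6J, and leaving out each PWK/PhJ mouse in turn gave 23 to 59 there. For CD levels, library totals gave A/J 34, WSB/EiJ 26, and C57BL/6J 41, and leaving out the mice rich in muscle markers gave 31 in CAST/EiJ. Isoform ratios permuted within cohorts gave 2. The difference of Cox6a2 in CAST/EiJ was reversed (-1.99) without the mice rich in muscle markers. The causes were not tested, except that leaving out mice also leaves fewer samples. Of the values of single genes, 737 kept their direction and side of the threshold and 13 lost the threshold, among them the F tests of Atp5g2 (adjusted p = 0.156) and Cox7a2 (adjusted p = 0.0716) with library totals. No paired analysis was possible because the labels give the groups no shared replicate numbers, but cohort, which both diets of a strain share, was fitted as a covariate and kept every count of genes within 1.5 times the reported one, though the 1 call in CAST/EiJ was then lower and not higher. The low-level isoforms, with few reads per mouse, were limited by depth.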
